A study of Mus musculus with 12 samples.

Results

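The 10 genes with large losses of expression in Dmrt1 knockout fetal testes described here are Rrad, Dpep3, Tmem232, 4933402E13Rik, Dntt, Svs4, Rph3a, Islr2, Dscaml1 and Pcp4. They were selected on their measured knockout minus wild-type differences, picked for large falls with results of these arrays in view, so their falls are given as a description and were not tested. All probe sets that the platform annotation assigns to 1 of these 10 genes alone were taken, 17 of 34958 that name 1 gene, and no probe set that names several genes holds one of them. The samples were whole testes of mouse embryos labelled E15.5 (the growth protocol names P28), with 3 arrays in each of 4 groups: Dmrt1 knockout in 129Sv, wild type in 129Sv, Dmrt1 knockout in B6 and wild type in B6. The series describes conditional loss, the sample labels say knockout, and the sources used here give neither the Cre driver nor the deleted part of the gene nor whether each array stands for 1 animal, so spread and p-values refer to these samples.

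Dmrt1 encodes a DM domain transcription factor of germ cells and Sertoli cells. In the fetal testis, male germ cells stop dividing and switch off pluripotency genes while Sertoli cells enclose them in cords, and Dmrt1 is known to restrain pluripotency and teratoma formation in germ cells of susceptible mouse strains. The listed genes are best known from other settings. Dpep3 (a membrane-bound dipeptidase) and Tmem232 (a transmembrane protein of sperm flagella) are known from the adult testis, and Svs4 encodes a secreted protein of the seminal vesicle. Rph3a (rabphilin, a Rab effector of synaptic vesicles), Islr2 (Linx, a leucine-rich repeat receptor partner in axon growth), Dscaml1 (a homophilic adhesion molecule of neurons) and Pcp4 (a small calmodulin regulator of Purkinje cells) are known from the nervous system. Rrad encodes a small GTPase that inhibits calcium channels in muscle, Dntt encodes terminal deoxynucleotidyl transferase, which adds bases to antigen receptor genes in lymphocytes, and no role is annotated here for 4933402E13Rik.

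To show the sequence in front of these genes, the 250 bases before the annotated start are printed for 3 of them from RefSeq on build GRCm38.p6, in the direction of the gene, with CpG pairs in capitals. Dpep3 (chr8:105979420-105979669, minus strand) has 10 CpG pairs, and Tmem232 (chr17:65510058-65510307, minus strand), whose values resembled those of Dpep3, has 2. Svs4 (chr2:164278308-164278557, minus strand) has 2 CpG pairs and is the one listed gene with TATAAA, also in capitals, between 40 and 16 bases before the start.
Dpep3: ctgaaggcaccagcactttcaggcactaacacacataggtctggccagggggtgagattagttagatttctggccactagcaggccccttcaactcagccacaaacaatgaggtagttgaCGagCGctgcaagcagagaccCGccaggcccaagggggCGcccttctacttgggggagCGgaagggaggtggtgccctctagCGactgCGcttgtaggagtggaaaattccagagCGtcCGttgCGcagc
Tmem232: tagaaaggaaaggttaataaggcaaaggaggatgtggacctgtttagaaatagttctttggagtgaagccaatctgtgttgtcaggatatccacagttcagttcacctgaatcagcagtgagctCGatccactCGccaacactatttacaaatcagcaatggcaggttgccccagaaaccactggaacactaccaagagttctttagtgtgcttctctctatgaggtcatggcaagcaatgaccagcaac
Svs4: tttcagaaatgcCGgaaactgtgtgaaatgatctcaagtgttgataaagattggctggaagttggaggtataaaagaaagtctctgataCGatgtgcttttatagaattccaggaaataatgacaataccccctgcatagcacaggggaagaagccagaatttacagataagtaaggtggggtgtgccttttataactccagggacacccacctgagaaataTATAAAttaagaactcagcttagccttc
Of all 32851 windows in the promoter set, 1.99% hold TATAAA at that distance. The 13 windows of the 8 listed genes in the table had a median of 4 CpG pairs and a range of 2 to 12, and all windows had a median of 6. The core of the DMRT1 binding sequence, searched as ACANTGT (its own reverse complement, and overlapping the SOX core ACAATG where N is A), was in none of the 13 windows of 300 bases, which run from 250 bases before to 50 after the start, and in 7.54% of all windows. Its narrower form ACATTGT, read on both strands, was likewise in none of the 13 and in 2.96% of all. With 13 windows these shares allow no statement on binding. Rrad and Dscaml1 have no entry among these windows.

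Values are log2 intensities, and 4 was taken as the background below which intensities carry little signal. The knocked-out gene was checked first: Dmrt1 stood at 7.43, 7.18 and 7.5 in 129Sv knockouts against 10.21, 9.85 and 9.99 in 129Sv wild types, and at 6.43, 6.00 and 6.19 in B6 knockouts against 9.64, 10.09 and 10.06 in B6 wild types. The log2 differences were -2.64 ± 0.17 (SE) in 129Sv and -3.72 ± 0.17 in B6, both past the test (limma adjusted p = 4.72e-07 and 1.97e-08). Medians of the 12 arrays lay between 17.34 and 19.00 in intensity and arrays of a group correlated with r of at least 0.983 across probe sets. Actb signal at the 3′ end over that at the 5′ end, a quotient that grows with RNA degradation, was 5.24 in 129Sv knockout replicate 1, 6.30 in B6 knockout replicate 3 and at most 3.91 elsewhere. Markers of the labelled tissue were present: Ddx4 of germ cells averaged at least 11.11, Wt1 of Sertoli cells at least 11.30 and Star of Leydig cells at least 11.40 in every group. Of 7 Sertoli cell markers, Cst9 and Fshr fell in both strains, while Sox9, Amh, Dhh, Gata4 and Wt1 passed in neither. Fshr averaged 2.73 in 129Sv knockouts and 2.70 in B6 knockouts, below the background, and reached 4 in wild types alone. The summed intensity of the 7 was 7280 to 8210 in 129Sv knockouts against 9340 to 10300 in 129Sv wild types. In B6 it was 8040 to 8740 in knockouts against 10100 to 10900 in wild types. Cst9 had the highest wild-type mean of the 7 (11.80 in both strains) and so weighs heavily in these sums. No tested Leydig cell (4) or macrophage (5) marker passed in either strain. In whole testes, fewer cells of a type and less RNA per cell cannot be told apart.

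All 10 listed genes passed the filter for testing (at least 4 on at least 3 arrays), 3 of them through wild-type arrays alone in both strains. In each strain every knockout array lay below every wild-type array in all 10 genes, whereas 14.6% of the 12726 tested genes did so in 129Sv and 13.4% in B6. A fitted fall of at least 2-fold was likewise seen in all 10 in both strains, against 2.84% of tested genes in 129Sv and 3.40% in B6. The choice of the members fixes these counts. The median log2 difference of the 10 genes was -3.41 in 129Sv and -3.77 in B6, and that of all tested genes was -0.01 and 0.03. With knockout values raised to the background, the medians were -2.99 and -2.86. The list is not a full ranking, since 40 other genes in 129Sv and 86 in B6 had a larger fitted fall than the listed gene with the smallest one.

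Among the genes known from reproductive tissues, Dpep3 kept a signal in 129Sv knockouts and none above background in B6 knockouts. Its level was 7.17, 5.77 and 7.84 in 129Sv knockouts against 9.58, 10.42 and 9.77 in 129Sv wild types. In B6 it was 3.03, 3.34 and 3.42 in knockouts against 6.66, 7.16 and 8.99 in wild types. The range of 129Sv knockouts overlapped that of B6 wild types, and within B6 wild types replicate 3 stood highest. Dpep3 was 7.98-fold lower in 129Sv knockouts (-3.0 ± 0.53, SE) and at least 12.2-fold lower in B6 knockouts (-4.34 ± 0.53). Folds are given as "at least" where knockout arrays below 4 were raised to 4.

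Tmem232 had the same order of groups. It stood at 6.30, 7.19 and 8.10 in 129Sv knockouts against 9.24, 9.56 and 9.78 in 129Sv wild types, and at 3.35, 3.63 and 3.30 in B6 knockouts against 6.92, 7.65 and 8.05 in B6 wild types. All 3 knockout arrays lay above the background in 129Sv and none did in B6. The gene was 5.01-fold lower in 129Sv knockouts (-2.33 ± 0.36), the smallest fitted fall of the 10 genes in that strain, and at least 11.6-fold lower in B6 knockouts (-4.11 ± 0.36).

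Svs4 was near the array's lowest values in all knockouts. It stood at 2.14, 2.06 and 2.36 in 129Sv knockouts against 7.26, 6.88 and 7.75 in 129Sv wild types, at least 9.83-fold lower (-5.11 ± 0.44, and -3.30 with values below 4 set to 4). In B6 it was 1.80, 1.78 and 2.03 in knockouts against 2.99, 3.45 and 5.33 in wild types. Only B6 wild-type replicate 3 exceeded the background, the wild-type mean of 3.92 lay below it, and no fold is given for B6. The fitted B6 difference of -2.06 ± 0.44 became -1.35 without that array. Of 4 tested markers of mesonephric duct and seminal vesicle, Lhx1 rose in both strains (3.40 and 2.41, limma adjusted p = 0.000882 and 0.0126) and Pax8 fell in 129Sv (-1.88, adjusted p = 0.00219), and their part in the Svs4 values was not tested.

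The unannotated gene 4933402E13Rik had 2.98, 3.09 and 4.51 in 129Sv knockouts against 7.13, 6.94 and 7.48 in 129Sv wild types. In B6 it had 2.33, 2.60 and 2.35 in knockouts against 5.96, 6.05 and 6.70 in wild types. Its fitted differences were -3.66 ± 0.34 in 129Sv (at least 8.06-fold) and -3.81 ± 0.34 in B6 (at least 4.71-fold). With values below 4 set to 4 they were -3.01 and -2.23, so which strain had the larger fall depends on knockout values below the background. Of 8 listed markers of spermatids and sperm, 4 (Prm2, Tnp2, Acrv1 and Odf1) stayed below 4 on every array, while Spaca1 averaged at least 5.47 and Prm1 at least 4.45 in every group. Of the 4 tested, Tnp1 and Akap4 fell in both strains (Akap4 -1.58 and -2.11, limma adjusted p = 0.0158 and 0.00286, with both genes' knockout means below 4), and Spaca1 rose in 129Sv (0.74, adjusted p = 0.0406).

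**Figure D1:**
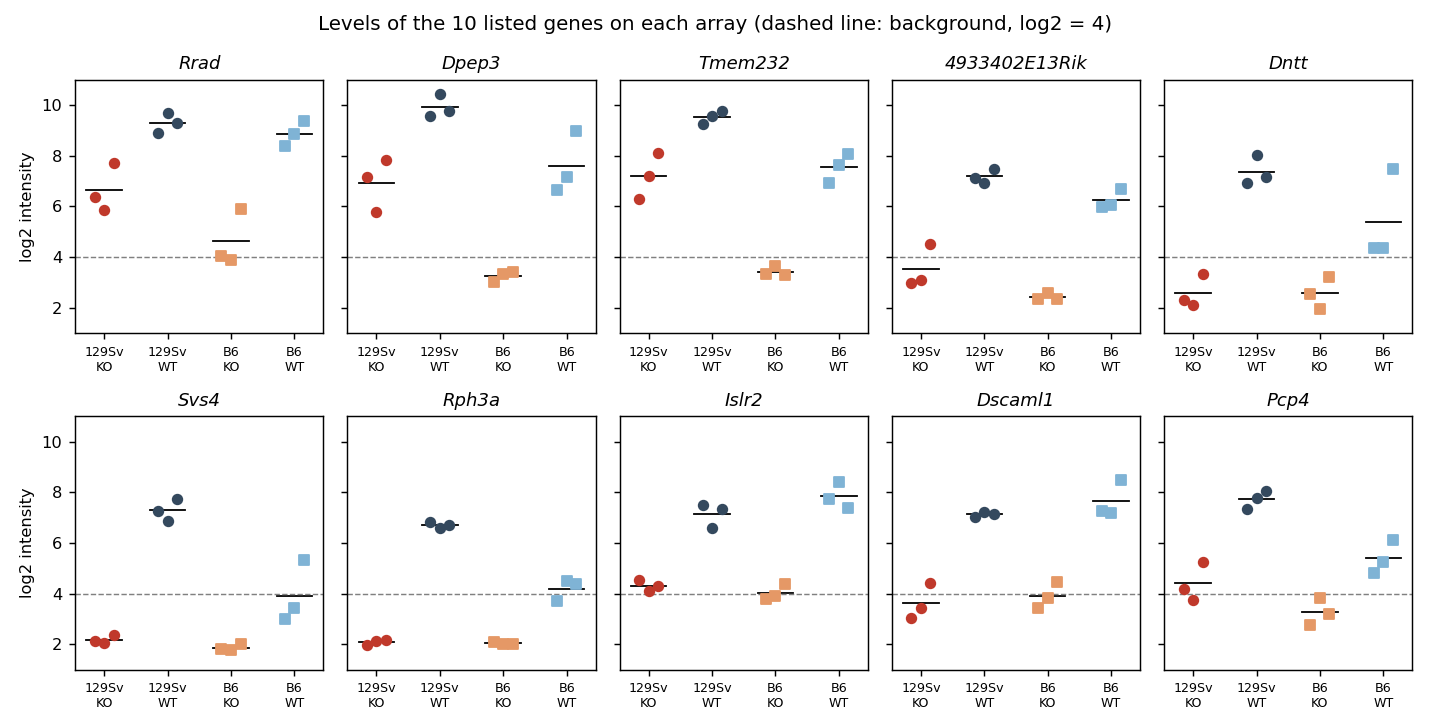
Log2 intensity of each listed gene on the 12 arrays, with 129Sv knockout (KO) and wild type (WT) as circles, B6 KO and WT as squares, group means as short lines and the background of 4 dashed. Rrad, Dpep3 and Tmem232 stay between 5.77 and 8.10 in 129Sv knockouts, while Svs4 and Rph3a are near 2 in all knockouts.

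Of the genes known from neurons, Rph3a showed the least spread. It stood at 1.99, 2.15 and 2.17 in 129Sv knockouts against 6.83, 6.59 and 6.70 in 129Sv wild types, at least 6.54-fold lower (-4.61 ± 0.22). B6 wild types were already near the background at 3.71, 4.50 and 4.37, set against 2.09, 2.00 and 2.03 in B6 knockouts. The fitted B6 difference was -2.16 ± 0.22, but measured against the background it amounts to at least 1.14-fold.

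Pcp4 had intermediate levels. It stood at 4.20, 3.75 and 5.27 in 129Sv knockouts against 7.36, 7.77 and 8.04 in 129Sv wild types (-3.32 ± 0.40, at least 9.39-fold lower), and at 2.78, 3.82 and 3.21 in B6 knockouts against 4.81, 5.26 and 6.14 in B6 wild types (-2.13 ± 0.40, at least 2.64-fold lower). B6 wild types overlapped in range with 129Sv knockouts.

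Islr2 and Dscaml1 differed from the rest in having the higher wild-type mean in B6. For Dscaml1 this rests largely on B6 wild-type replicate 3, without which the 129Sv minus B6 wild-type difference went from -0.52 to -0.1. Islr2 stood at 4.54, 4.09 and 4.31 in 129Sv knockouts against 7.5, 6.60 and 7.35 in 129Sv wild types (-2.83 ± 0.29, 7.13-fold lower). In B6 it stood at 3.80, 3.92 and 4.38 in knockouts against 7.76, 8.41 and 7.40 in wild types (-3.82 ± 0.29, at least 13.3-fold lower). Both knockout groups lay close to the background and far below their wild types.

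Dscaml1 stood at 3.06, 3.42 and 4.42 in 129Sv knockouts against 7.02, 7.22 and 7.15 in 129Sv wild types, and at 3.45, 3.85 and 4.47 in B6 knockouts against 7.26, 7.20 and 8.49 in B6 wild types. Replicate 3 of each knockout group was the only one above the background. Its fitted differences, -3.49 ± 0.38 in 129Sv (at least 7.93-fold) and -3.73 ± 0.38 in B6 (at least 11.3-fold), were -2.99 and -3.49 with values below 4 set to 4.

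As a group, neuron markers were not lower in knockouts. Their summed intensity was higher in both strains, but Tubb3, with the highest mean of them in every group, weighs most in that sum. The mean log2 level of 7 measured was 4.45, 4.58 and 4.8 in 129Sv knockouts against 4.43, 4.34 and 4.38 in 129Sv wild types, and 4.33, 4.58 and 4.46 in B6 knockouts against 4.24, 4.46 and 4.39 in B6 wild types, where the groups overlap. Their summed intensity was 228 to 290 in 129Sv knockouts against 181 to 192 in 129Sv wild types and 292 to 352 in B6 knockouts against 179 to 246 in B6 wild types. Snap25, a synaptic vesicle fusion protein gene below the filter, averaged 2.79 in 129Sv knockouts against 3.99 in 129Sv wild types and 2.07 in B6 knockouts against 3.38 in B6 wild types. Of the 5 tested, Th (tyrosine hydroxylase) rose in both strains (1.96 and 0.78, limma adjusted p = 4.72e-05 and 0.0408). Tubb3 rose in B6 (1.08, adjusted p = 0.00787), and none passed as lower. Th passed the filter through the 129Sv knockouts alone, so its rise follows in part from the filter. Its B6 means, 3.65 in knockouts and 2.87 in wild types, both lie below the background. Without passing, Prph was lower in both strains (-0.10 and -0.23), Syt1 was lower in 129Sv and higher in B6 (-0.23 and 0.12), and Stmn2 was higher in both (0.28 and 0.09).

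Rrad kept a signal in all 129Sv knockouts. It stood at 6.39, 5.87 and 7.70 in 129Sv knockouts against 8.91, 9.68 and 9.29 in 129Sv wild types (-2.64 ± 0.50, 6.24-fold lower). In B6 it stood at 4.06, 3.90 and 5.90 in knockouts against 8.39, 8.87 and 9.37 in wild types (-4.26 ± 0.50, at least 18.7-fold lower). B6 knockout replicate 3 lay well above the other B6 knockouts, and without it the B6 difference was -4.90. Of 8 muscle markers, Acta1 and Ckm were below 4 on every array, and of the 4 tested Myh6 fell in 129Sv (-1.22, limma adjusted p = 0.0469) and Myh3 in B6 (-0.83, adjusted p = 0.0412).

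Dntt was at background in every knockout and variable in B6 wild types. It stood at 2.30, 2.11 and 3.35 in 129Sv knockouts against 6.91, 8.02 and 7.16 in 129Sv wild types, at least 10.3-fold lower (-4.78 ± 0.65). B6 knockouts had 2.54, 1.96 and 3.20 against 4.34, 4.35 and 7.47 in B6 wild types, at least 2.61-fold lower (-2.82 ± 0.65), and -1.78 without B6 wild-type replicate 3. That replicate alone reached the 129Sv wild-type level. The lymphocyte markers Cd3e, Cd3d, Cd3g, Rag1, Rag2 and Cd79a were below 4 on every array, and Ptprc, the only other one measured of 9 listed, did not pass in either strain (limma adjusted p = 0.924 and 0.287).

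The 7 further probe sets of the listed genes did not all repeat these values. For Dntt both did in 129Sv: they stood between 2.09 and 3.40 in knockouts against 5.09 to 7.52 in wild types, one of them carrying the suffix for possible cross-hybridisation. In B6 one of the 2 overlapped between knockouts and wild types. The second Rph3a probe set and 4 further Dscaml1 probe sets were below 4 on all 12 arrays, between 1.73 and 3.79, so those falls rest on 1 probe set per gene. With the mean of all probe sets, the Dscaml1 differences were -0.87 in 129Sv and -0.93 in B6, and those of Rph3a were -2.48 and -1.03.

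Side by side, the fitted fall was larger in B6 for 6 genes and in 129Sv for 4. For Rrad, Dpep3, Tmem232 and Islr2 the 129Sv minus B6 differences of the effects were 1.61 ± 0.70, 1.34 ± 0.75, 1.79 ± 0.52 and 0.99 ± 0.40, and for 4933402E13Rik and Dscaml1 they were 0.15 ± 0.48 and 0.23 ± 0.54. In Dntt, Svs4, Rph3a and Pcp4 the fall was larger in 129Sv, by -1.96 ± 0.93, -3.05 ± 0.62, -2.45 ± 0.31 and -1.18 ± 0.56. Those 4 had lower wild-type means in B6, but so did Rrad, Dpep3, Tmem232 and 4933402E13Rik, whose fitted falls were larger in B6. With values below 4 set to 4, the order of the strains turned round for 4933402E13Rik alone among the 10, and the Dpep3 falls moved to -3.0 in 129Sv and -3.60 in B6. Since the members were picked for these falls, the differences were not tested.

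**Figure D2:**
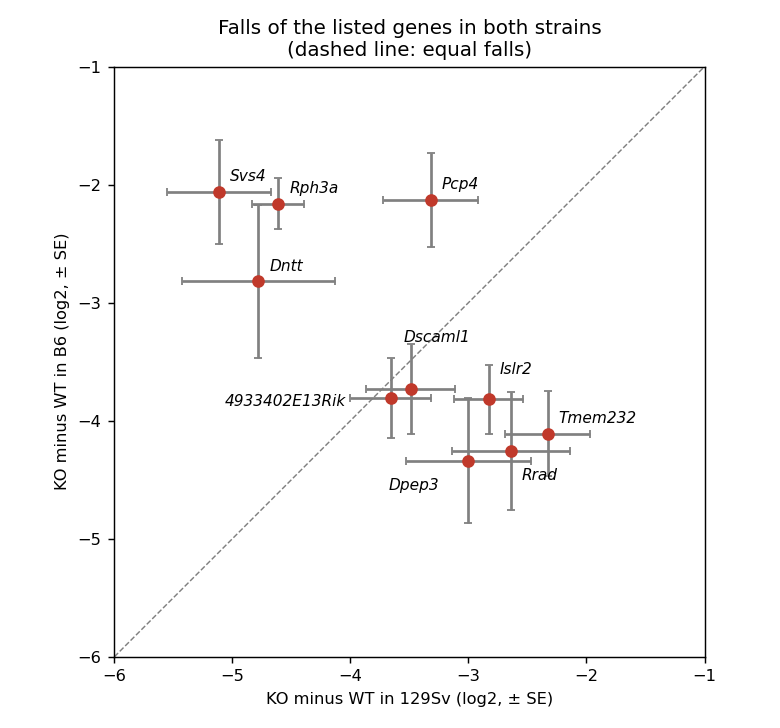
Fitted knockout minus wild-type log2 difference of each listed gene in 129Sv (horizontal) and in B6 (vertical), with standard errors and a dashed line of equal falls. Svs4, Rph3a, Dntt and Pcp4 lie on the side of larger falls in 129Sv, while Dpep3, Rrad, Tmem232 and Islr2 lie on the side of larger falls in B6.

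Within each genotype, the strains differed as follows. In knockouts, Tmem232, Dpep3 and Rrad were higher in 129Sv than in B6 by 3.77, 3.66 and 2.03 on the log2 scale, and Dntt, Svs4 and Rph3a differed by 0.02, 0.32 and 0.06 at levels below the background. In wild types, Svs4, Rph3a, Dpep3, Pcp4, Tmem232 and Dntt were higher in 129Sv by 3.37, 2.51, 2.32, 2.32, 1.99 and 1.98, while Islr2 and Dscaml1 had differences of -0.71 and -0.52, lower in 129Sv. Without B6 wild-type replicate 3 the differences of Islr2 and Dscaml1 were -0.94 and -0.1. All 129Sv wild types lay above all B6 wild types in 6 of the 10 genes, against 26.6% of tested genes, and all 129Sv knockouts above all B6 knockouts in 4 of 10, against 25.0%. These groups also entered the falls, so the counts are descriptions.

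**Figure D3:**
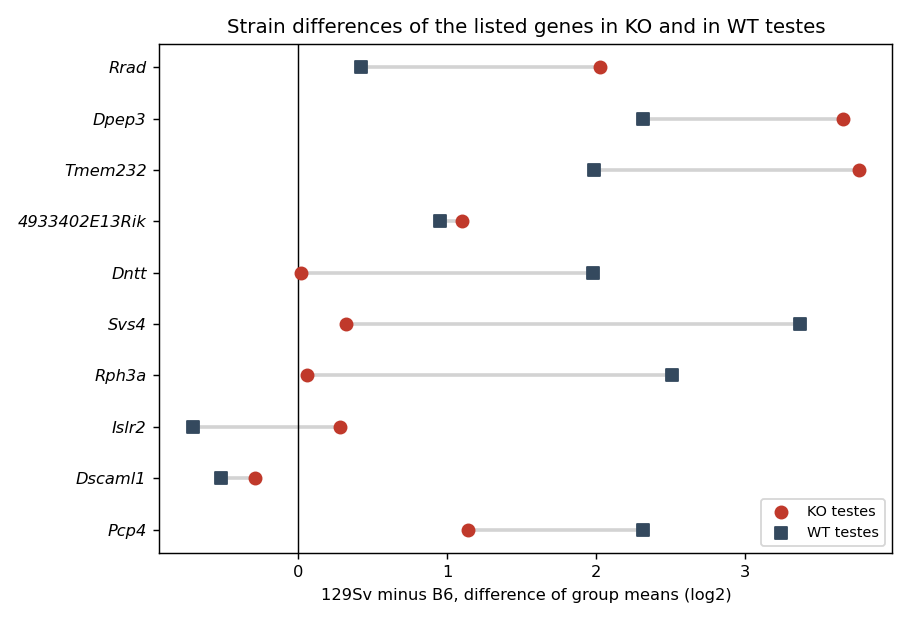
129Sv minus B6 difference of group means (log2) for each listed gene, in knockout testes (circles) and in wild-type testes (squares). The knockout difference is the larger one for Rrad, Dpep3 and Tmem232, and the wild-type difference is the larger one for Dntt, Svs4, Rph3a and Pcp4.

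A strain contrast, 129Sv minus B6 averaged over knockout and wild type, was tested. In this balanced design it is uncorrelated with both falls where the groups have equal spread. Spreads were unequal for some genes, as for Dpep3 in B6 (SD 0.21 in knockouts, 1.23 in wild types). The members were picked on these same arrays, so the calls are not independent of that choice. No B6 knockout array of Dpep3, Tmem232, 4933402E13Rik, Dntt or Pcp4 reached 4. Svs4 and Rph3a passed the filter through 129Sv arrays alone, so their differences (1.85 ± 0.31 and 1.29 ± 0.16) follow in part from the filter and are given as values only. Of the other 8 genes, which reached 4 on at least 3 arrays of each strain, 5 were higher in 129Sv and none was lower, whereas 23.0% of the 11986 genes so measured were higher. Of all 12726 tested genes 24.6% were higher and 15.1% lower, 39.7% in all. Dpep3 differed by 2.99 ± 0.37 (7.95-fold, limma adjusted p = 2.57e-05) and Tmem232 by 2.88 ± 0.26 (7.36-fold, adjusted p = 1.28e-06). Pcp4 (1.73 ± 0.28, adjusted p = 0.000247), Rrad (1.22 ± 0.35, 0.0124, and 0.0802 with values below 4 set to 4) and 4933402E13Rik (1.02 ± 0.24, 0.00378) also passed. Dntt at 1.00 ± 0.46 did not (adjusted p = 0.101, but 0.00097 without B6 wild-type replicate 3), nor did Dscaml1 at -0.41 ± 0.27 (0.246) and Islr2 at -0.21 ± 0.20 (0.43). Folds of averages that include values below 4 are fitted values. Germ cell markers moved with the strain: 6 of 7 tested (with Ddx4, Dazl and Pou5f1 among the 7) were higher in 129Sv in the same contrast, and their summed level was 17600 to 21800 in 129Sv knockouts, 17300 to 17700 in 129Sv wild types, 8330 to 12900 in B6 knockouts and 13200 to 15000 in B6 wild types. Their part in the listed genes' values was not tested. In B6, Mael, Dnd1 and Tdrd1 of that list fell in the knockout (-0.96, -1.43 and -1.83, adjusted p = 0.000569, 0.00216 and 0.00442). In 129Sv Dppa3 rose (0.93, adjusted p = 0.00103) and none passed as lower, with Tdrd1 at -1.13 (adjusted p = 0.0605). The difference of the knockout effects did not pass for Mael, Dnd1, Tdrd1 or Dppa3 (limma adjusted p = 0.109, 0.108, 0.494 and 0.167). The last number of the sample titles, which the sources used here do not explain, separates the strains, and in B6 it also separates knockouts (1 to 3) from wild types (4 to 6). An effect of that number cannot be told apart from that of strain or, in B6, from that of the knockout, so this holds for every B6 fall and call above and below. In 129Sv the knockouts (9 to 11) lie within the range of the wild types (7 to 12).

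Single arrays stood apart for the listed genes as a group. B6 wild-type replicate 3 was the highest B6 wild type for 8 of the 10 genes, while it was highest for 28.2% of all tested genes, and the mean level of the 10 genes was 5.88, 6.29 and 7.23 in B6 wild-type replicates 1 to 3. The title of that replicate lacks the number before the strain code that the other 5 B6 titles carry. Its mean log2 level of germ cell markers was 10.11, against 9.75 and 10.02 in the other B6 wild types, and that of macrophage markers was 6.22, against 7.04 and 7.02. Among 129Sv knockouts, replicate 3 was highest for 9 of 10 genes (34.0% of all tested genes), with a mean of 5.00 against 4.11 and 3.95, and a germ cell marker mean of 10.71 against 10.28 and 10.36. B6 knockout replicate 3 had the highest mean of the 10 genes in its group, 3.43 against 2.92 and 3.08, and the lowest germ cell marker mean, 9.07 against 9.53 and 9.38. It was also highest in its group for macrophage markers (7.61 against 6.58 and 7.00), Leydig cell markers (12.55 against 12.12 and 12.37) and muscle markers (4.46 against 3.91 and 3.71). The part of these differences in the listed genes' values was not tested.

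Relatives and partners of the listed genes were tested in the same fit. Of 30 on the list, 19 were tested, 4 were below the filter (Svs2, Svs3a, Svs6 and Doc2g) and 7 were not analysed here. In 129Sv 3 fell (15.8%), none rose and 16 did not pass, while limma called 8.31% of all genes (4.07% higher, 4.24% lower). In B6 1 fell (5.26%) and 18 did not pass, while 7.90% of all genes were called (2.45% higher, 5.45% lower). The medians were 0.01 in 129Sv and 0.12 in B6. Ret, the receptor tyrosine kinase that partners with Islr2 and with GDNF co-receptors, averaged 3.89 in 129Sv knockouts against 5.49 in 129Sv wild types (-1.60 ± 0.21, adjusted p = 0.000179) and 2.27 in B6 knockouts against 3.87 in B6 wild types (-1.60 ± 0.21, adjusted p = 0.000221), where both means lie below the background and the call ends with values below 4 set to 4 (-0.06, adjusted p = 0.814). Rem2, an RGK GTPase like Rrad, averaged 3.38 in 129Sv knockouts against 4.47 in 129Sv wild types (-1.10, adjusted p = 0.00723, and -0.47 with values below 4 set to 4). It passed the filter through the 129Sv wild types alone, so its fall and its place in the 129Sv count follow in part from the filter. Dscam, the paralogue of Dscaml1, averaged 3.70 in 129Sv knockouts against 4.60 in 129Sv wild types (-0.90, adjusted p = 0.0335), a call that ended without any single 129Sv array other than knockout replicate 3 (adjusted p up to 0.145). Without any one of the 129Sv wild types the count in 129Sv was 1. Differences of the relatives that did not pass ran between -0.51 (Rph3al, a relative of Rph3a) and 0.96 (Rab27a, a Rab partner of rabphilin, adjusted p = 0.517) in 129Sv, and between -0.69 (Dscam) and 0.60 (Rab3a, a synaptic vesicle Rab, adjusted p = 0.158) in B6. Gem, another RGK GTPase, differed by 0.01 in 129Sv and -0.39 in B6, Pcp4l1 by 0.07 and -0.08, and Polb, a DNA polymerase of the family of Dntt, by -0.15 and -0.04. No relative passed for a difference between the knockout effects, which 1.31% of all genes did (1.12% higher in 129Sv, 0.196% lower).

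The 40 nearest tested genes in chromosomal order, 2 on each side of each listed gene, were called more often than genes at large. In 129Sv 9 of 40 passed (22.5%), 3 higher and 6 lower, beside 8.31% of all tested genes, and in B6 10 passed (25.0%), 4 higher and 6 lower, beside 7.90%. The share was not tested, the medians were -0.06 and 0.03, and with the title number before the strain code as a covariate the 129Sv count was 3. Without B6 wild-type replicate 3 the B6 count was 4, and with values below 4 set to 4 it was 2. Dscam, on one side of Pcp4, is among the 6 lower in 129Sv and was already counted with the relatives. Svs5 and Islr are on both lists too and passed in neither strain, so the 2 counts are not separate. In both strains 5 neighbours were called, each in the same direction, a count given without the matching share of all tested genes. Oas3, an oligoadenylate synthetase next to Rph3a, averaged 2.30 in 129Sv knockouts against 4.41 in 129Sv wild types (-2.11 ± 0.31, adjusted p = 0.000556) and 2.08 in B6 knockouts against 3.66 in B6 wild types (-1.58 ± 0.31, adjusted p = 0.00592), the B6 means both below background. With values below 4 set to 4 both Oas3 calls ended (-0.41 in 129Sv, adjusted p = 0.208, and -0.07 in B6). Gm4988, beside 4933402E13Rik, fell in both strains (-1.43 and -1.96, adjusted p = 0.00222 and 0.000234), again below background in both B6 groups. Sdc4, the heparan sulfate proteoglycan syndecan-4, encoded near Svs4, fell (-0.61 and -0.53, adjusted p = 0.0046 and 0.0133). Pml (0.79 and 0.63, adjusted p = 0.00222 and 0.0125) and Stoml1 (0.90 and 1.21, adjusted p = 0.023 and 0.00408), on one side of Islr2, rose, opposite to Islr2.

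Sox3, a SOX family transcription factor encoded before 4933402E13Rik on the X chromosome, was the neighbour with the largest change. It averaged 7.52 in 129Sv knockouts against 4.59 in 129Sv wild types (2.93 ± 0.33, adjusted p = 4.68e-05), and 3.73 in B6 knockouts against 3.90 in B6 wild types (-0.17 ± 0.33, adjusted p = 0.78). Of the 4 neighbours of Tmem232, Txndc2, a sperm thioredoxin gene, rose in B6 (1.06, adjusted p = 0.0409) and the others did not pass. None of the 4 neighbours of Dpep3 passed in either strain. Pik3ap1 near Dntt (-1.10, adjusted p = 0.00707) and Fxyd2 near Dscaml1 (-0.90, adjusted p = 0.0265) fell in 129Sv. In B6, Igsf5 near Pcp4 (-1.62, adjusted p = 0.00542), 3830417A13Rik near 4933402E13Rik (-1.21, adjusted p = 0.00926) and Pdp2 near Rrad (-1.15, adjusted p = 0.0312) fell, and Ces2g near Rrad rose (1.28, adjusted p = 0.0406). The calls of Ces2g and Txndc2 each ended in 8 of the 12 fits that left out 1 array, that of Fxyd2 in 4, and those of Stoml1 in 129Sv and Pdp2 in 3. With replicate number as a block, Ces2g and Txndc2 also missed the threshold (adjusted p = 0.0605 and 0.0503). With values below 4 set to 4, the calls of Stoml1 (adjusted p = 0.0892) and Fxyd2 (0.1) in 129Sv ended, and in B6 the calls of all neighbours but Pml and Stoml1, Igsf5 with -0.59 (adjusted p = 0.386).

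**Figure D4:**
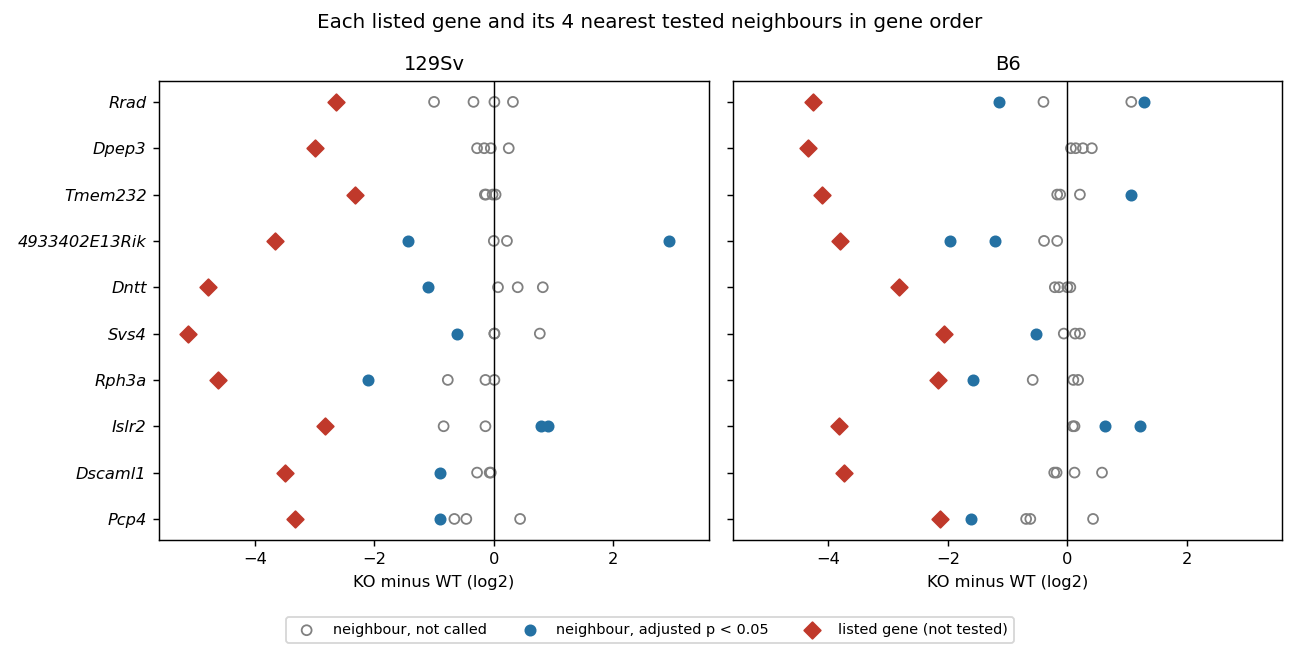
Knockout minus wild-type log2 difference in 129Sv and in B6 for each listed gene (diamonds, not tested) and its 4 nearest tested neighbours (open circles: not called, filled circles: limma adjusted p under 0.05). Every listed gene lies further to the left than its neighbours, and the filled circles lie on both sides of 0.

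The genes whose profiles were most like those of the listed genes were found by the root mean square difference of centred log2 values, floored at 4, over 12 arrays. Nlrp4f, a germline NLRP gene, was nearest to Tmem232 (0.39) and to Dpep3 (0.52), next to Afp, the alpha-fetoprotein gene, for Tmem232 (0.40) and the piRNA pathway helicase Tdrd9 for Dpep3 (0.57). Asb17 (0.23) and Klrb1a (0.28) were nearest to Rph3a, Prss45 (0.36) and Foxa1 (0.41) to Svs4, and Adtrp (0.35) and Efcab3 (0.35) to Pcp4. For Islr2 (0.53) and Dscaml1 (0.58) the nearest gene was Dmrt1 itself, followed by Slc13a2 (0.72) and Col22a1 (0.64). Drc1 (0.58) and Ceacam10 (0.59) were nearest to Rrad, Abcd2 (0.30) and Pnliprp2 (0.32) to 4933402E13Rik, and Ccdc113 (0.52) and Nlrc5 (0.52) to Dntt. The listed genes' own root mean square deviations from their means lay between 1.14 and 2.22. Within the list, Svs4 and Rph3a were the most alike (0.42) and Dpep3 and Islr2 the least (1.67). These are descriptions over arrays that share the groups, and without the floor 8 of the 20 named neighbours in profile remained.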

How the data were processed

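Total RNA of whole E15.5 testes was labelled with biotin and hybridised to Affymetrix arrays. The deposited values are linear intensities per probe set that the authors made with GCRMA (version and settings not given in the sources used here), per the submitters' processing notes; no entry was below 1.40, and log2 was taken here. Arrays have no read depth, and 3 per group limit the precision. The platform annotation gave the gene names, and its Entrez identifiers matched RefSeq genes of GRCm38.p6 for 34754 of 34958 probe sets with 1 gene. A gene was represented by its probe set of the highest mean, and the 12726 genes that reached 4 on the log2 scale on 3 arrays were fitted with limma 3.58.1 in R 4.3.3 (4 group means, eBayes with trend) and adjusted by Benjamini-Hochberg at 0.05. Errors of differences are standard errors. For folds, knockout arrays below 4 were set to 4. The listed genes, relatives and marker lists were chosen with earlier results of these data known. Genes named are all listed genes, relatives and neighbours past the threshold, the 2 most alike genes of each, and markers by list. On simulated data with 200 of 12726 genes changed, the fit found 80% of changes of 1 on the log2 scale in the 129Sv knockout contrast (5.62% false calls), 80% in B6 (7.98%) and 92% in the strain average (4.42%). Same-numbered replicates of knockout and wild type did not deviate together (r from -0.466 to 0.00759), so replicate number was not used as a block, although B6 replicates 1 and 2 share an identifier between the titles of knockout and wild type. Alternatives covered filters, probe set rules, normalisation, the background, blocks and each array left out.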

Additional observations from a re-analysis of the deposited data

Results flagged for a closer look

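Among Dmrt1, the relatives and the neighbours, 3 genes passed a test of the difference of the knockout effects (129Sv minus B6, limma), as did 167 of all tested genes. Among the genes picked for profiles like those of the listed genes, the differences of Afp, Asb17 and Klrb1a were 2.24, -2.50 and -2.32. These genes were picked on the same arrays, so their differences follow in part from that choice and are given as values only. The B6 means of Asb17 and Klrb1a lay below 4. For Dmrt1 the difference was 1.08 ± 0.24 (adjusted p = 0.045), with the larger fall in B6. For Sox3, the neighbour of 4933402E13Rik, it was 3.10 ± 0.46 (adjusted p = 0.00444, and 0.062 once the title number before the strain code was a covariate, where the difference was 3.17 and only replicate 2 of the 129Sv wild types shares the number of the 129Sv knockouts). For Fxyd2, the neighbour of Dscaml1 and a regulatory subunit of the sodium pump, it was -1.47 ± 0.33 (adjusted p = 0.0446), with adjusted p between 0.0256 and 0.2 over the alternatives, 17 of which missed the threshold. Single outlying arrays were not tested for in groups of 3.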

How the results depend on the processing

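Same-numbered samples did not deviate together, although the titles of knockout and wild type share an identifier in B6 replicates 1 and 2, whose meaning the labels do not give. In those B6 replicates r was 0.00759 and 0.00275. The replicate block joined same-numbered arrays across all 4 groups, so pairing by that identifier was not tested. The block ended the calls of Ces2g, Txndc2 and the difference of effects of Fxyd2 (adjusted p = 0.0605, 0.0503 and 0.0608) among the named genes and no other. With the replicate block the counts were 977 of all tested genes in 129Sv and 838 in B6, 9 and 8 neighbours, and 3 and 1 relatives. In the strain average 7 listed genes passed with it, Svs4 and Rph3a included, beside 4749 of all tested genes. The calls of Svs4 and Rph3a follow in part from the filter. The listed genes' median falls with the block were -3.41 and -3.77. The median fall in B6 was -2.98 with the mean of all probe sets and -2.86 with values below 4 set to 4. Against a background of 5 the medians were -2.31 in 129Sv and -1.89 in B6, and against 3 the B6 median was -3.48. Relatives called in 129Sv (3) numbered 0 with the filter at 6, 1 with the mean of probe sets and 1 with the title number as covariate, and 1 to 3 with an array left out; in B6 (1) they numbered 0 with the filter at 6, with values below 4 set to 4 or with the B6 groups alone, and 1 to 2 with an array left out, the 2 arising without B6 knockout replicate 1. Neighbours in 129Sv (9) numbered 5 with the filter at 6, 3 with the title number and 14 with the 129Sv groups alone, and 6 to 14 with an array left out, the 14 arising without B6 knockout replicate 3. Neighbours in B6 (10) numbered 4 with the filter at 6, 2 with values below 4 set to 4 and 2 with the B6 groups alone, and 4 to 11 with an array left out. All genes called in 129Sv (1058) numbered 696 with the filter at 6 and 347 with the title number, and 596 to 1561 with an array left out, the lowest without 129Sv knockout replicate 2. In B6 (1005) they numbered 324 with values below 4 set to 4 and 394 with the B6 groups alone, and 430 to 1273 with an array left out, the lowest without wild-type replicate 3. The difference of effects (167) gave 108 with the mean of probe sets, 20 with the title number, 73 with probe sets in place of genes, and 39 to 300 with an array left out. The strain average (5057) gave 8103 with probe sets in place of genes, of which more were tested. Of the listed genes (Svs4 and Rph3a included) 6 to 7 passed the strain average in all alternatives and 7 to 8 with an array left out, Rrad missing it with values below 4 set to 4 (1.21, adjusted p = 0.0802). 3830417A13Rik in B6 became 0.00 with values below 4 set to 4, since both groups lie below 4. Other causes were not tested. Signal near background limits every knockout value below 4.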
